A study of Mus musculus with 6 samples.

Results

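The JNK branch of noncanonical Wnt signaling was followed here through 10 genes chosen by their role in the cascade and not by a limit on their measured values. Earlier results of these data were known when these genes were chosen. They were the JNK kinases *Mapk8*, *Mapk9* and *Mapk10*, the upstream kinases *Map2k4*, *Map2k7*, *Map3k1* and *Map3k7*, the scaffold *Mapk8ip1*, the nuclear target *Atf2* and the Dishevelled-binding formin *Daam1*. All 10 were found by symbol among the 27506 genes of the count table. RNA was sequenced from dental pulp of the mandibular first molar of C57BL/6 mice at postnatal day 3.5 (P3.5), in 3 control libraries of genotype *Ror2fl/fl* and 3 mutant libraries of genotype *Osr2-Cre;Ror2fl/fl*. By the genotype labels both groups carried the floxed *Ror2* allele, and only the mutants carried Cre. The titles also hold letter codes that are not explained, WW for control 1, OW for control 2 and control 3 and OR for all mutants. *Osr2-Cre* acts in the dental mesenchyme and not in the dental epithelium, so any epithelial RNA in a mutant library comes from cells that keep the gene. Nothing in the labels says whether a library stands for 1 mouse or a pool, or whether the libraries of a group come from separate mice, so the p-values measure the spread between these libraries, which may be technical.

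Ror2 is a receptor for Wnt5a. In the noncanonical pathway it works with Frizzled receptors through Dishevelled and does not need β-catenin. One arm runs from Dishevelled through Rac to a kinase cascade in which MAP3 kinases phosphorylate the MAP2 kinases encoded by *Map2k4* and *Map2k7*, and these phosphorylate the JNK kinases on a threonine and a tyrosine of the activation loop. JNK then phosphorylates transcription factors of the Jun and ATF families. The cascade works by phosphorylation, so transcript levels describe how much of each component could be made and not how active it was.

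The 3 JNK genes encode closely related kinases, and reads of 75 bases had to be assigned to one or the other. The coding stretch of 75 bases around the phosphorylated threonine and tyrosine shows how far they can be told apart (GENCODE M21 transcripts, GRCm38/mm10, 5′ to 3′ along the gene). It lies within 1 exon in each gene, at chr14:33392970-33393044 on the minus strand in *Mapk8* (exon 6), at chr11:49872797-49872871 on the plus strand in *Mapk9* (exon 6) and at chr5:102989648-102989722 on the minus strand in *Mapk10* (exon 7). Capitals mark bases that differ from *Mapk8*.
Mapk8: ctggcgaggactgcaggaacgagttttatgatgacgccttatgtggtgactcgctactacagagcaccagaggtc
Mapk9: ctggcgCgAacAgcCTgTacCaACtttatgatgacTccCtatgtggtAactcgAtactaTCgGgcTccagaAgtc
Mapk10: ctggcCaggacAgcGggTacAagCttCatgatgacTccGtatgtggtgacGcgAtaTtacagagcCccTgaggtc

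Even in this conserved stretch *Mapk9* differed from *Mapk8* at 18 positions and *Mapk10* at 14. The longest run of identical bases between any pair of the 3 coding sequences was 23, and no stretch of 75 bases from the transcripts of *Mapk8*, *Mapk9* or *Mapk10* occurred in the transcripts of another gene. Counts of the 3 JNK genes can therefore be read as separate measurements.

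The libraries held 56134770 to 62628940 estimated counts. *Ror2* itself, the floxed gene, measured 38.2, 36.2 and 36.7 CPM (counts relative to library size after edgeR's TMM scaling) in controls and 27.9, 28.1 and 26.3 CPM in mutants, a log2 fold change of -0.43 with an edgeR adjusted p of 0.0134, counted over the whole gene and not over the floxed part alone. Of the 19330 genes that passed the filter on low counts, 3906 (20.2%) had an adjusted p under 0.05 (edgeR's quasi-likelihood test, Benjamini-Hochberg adjustment over all genes tested), 1903 (9.84%) lower and 2003 (10.4%) higher in mutants, and 38.3% had an unadjusted p under 0.05. Markers of other tissues were present. A list of 9 enamel-epithelium genes summed to 172000 to 192000 CPM in controls and 186000 to 256000 CPM in mutants, with 0 of 9 past the threshold in edgeR's test (4 at an unadjusted p under 0.05, 3 with DESeq2, 0 with limma), so tissue labelled as pulp held abundant epithelial RNA, while 9 pulp and odontoblast genes summed to 15100 to 46800 and 13600 to 36100 CPM. Of 8 skeletal muscle genes 7 fell past the threshold, with sums of 11.6 to 38.1 against 3.38 to 4.73 CPM. The difference between groups also moved with base composition: the median log2 fold change was -0.25 in the 4833 genes of lowest GC content (up to 44.8%) and 0.20 in the 4833 of highest (from 54.2%). The identifiers in the titles start with another digit in each group, and a batch they might mark and the genotype cannot be told apart.

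Of the 10 JNK branch genes all were tested and 2 passed the threshold, *Mapk10* lower and *Map2k7* higher in mutants. That is 20% of the genes, beside 20.2% of all genes tested, so the branch as a whole was called no more often than the background. The estimates of 8 genes were below 0 and those of 2 above 0, with a median log2 fold change of -0.10 beside 0.007 over all genes tested. At an unadjusted p under 0.05 the count was also 2, beside 38.3% of all genes tested. In 4 genes the groups did not overlap, beside 44.7% of all genes tested. *Mapk10* and *Map3k7* were lower without overlap, a pattern held by 22.1% of all genes, and *Mapk8* and *Map2k7* higher, held by 22.6%. Fewer cells of a type and less RNA per cell cannot be told apart in bulk libraries.

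**Figure D1:**
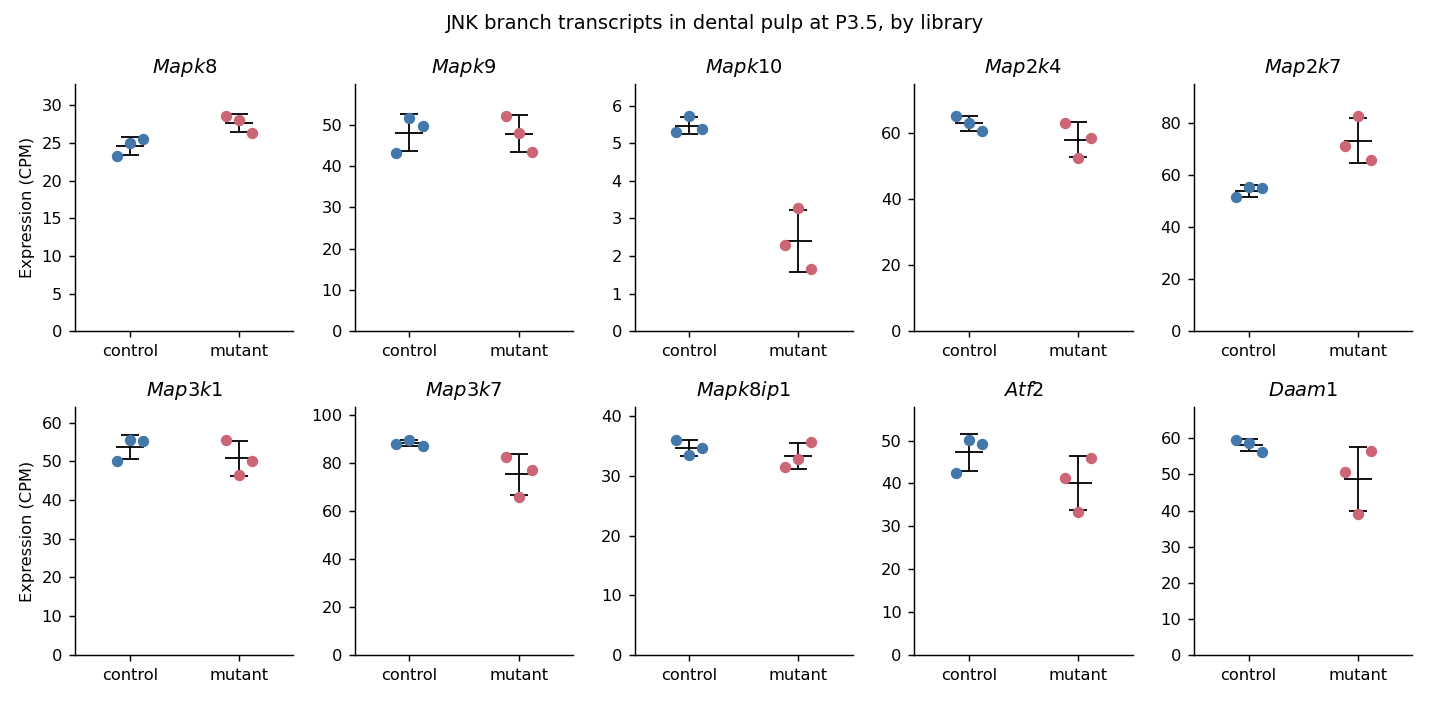
Expression of each JNK branch gene in CPM (vertical axis from 0, its scale set for each gene) in the 3 control (blue) and 3 mutant (red) libraries, with the mean and SD as bars. The *Mapk10* points of mutants lie at 1.64 to 3.28 CPM, below the controls at 5.29 to 5.73 CPM, and the *Map2k7* points of mutants lie above those of controls.

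*Mapk10* (chr5:102907948-103211334, minus strand) encodes JNK3, the JNK kinase known chiefly from the nervous system. It measured 5.29, 5.73 and 5.39 CPM in controls and 2.30, 3.28 and 1.64 CPM in mutants. Every mutant library was below every control library, and the mutants differed among themselves more than the controls did. The mean was 5.47 ± 0.228 CPM (SD, n = 3) in controls and 2.41 ± 0.821 CPM (SD, n = 3) in mutants, a fall of 56.0% (log2 fold change -1.19, SE 0.24, 95% interval -1.74 to -0.63, edgeR adjusted p = 0.0154). It was the least abundant of the 10 genes and rested on 97 to 341 counts a library. The adjusted p was 0.0669 without control 2, 0.0613 without control 3 and 0.0629 with offsets for GC content and length, where the log2 fold change was -0.91.

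Neuronal markers were set beside it. The 8 markers summed to 79.6 to 114 CPM in controls and 83.7 to 120 CPM in mutants, a sum carried mostly by *Tubb3*. Of the 6 that could be tested 0 fell past the threshold (0 at an unadjusted p under 0.05 and 0 with DESeq2 or limma), and *Stmn2* (log2 fold change 1.12, edgeR adjusted p = 0.0288) and *Rbfox3* (0.76, edgeR adjusted p = 0.0419) rose. The others did not pass, with estimates of -0.70 for *Elavl4* (edgeR adjusted p = 0.227), -0.02 for *Tubb3*, 0.12 for *Snap25* and 0.15 for *Syt1*. *Nefl* was at 0 in control 2 and control 3 and *Prph* was under 0.05 CPM in every library. The summed level of the neuronal list thus overlapped between groups. That of the skeletal muscle list did not, and 2 of 5 erythroid genes fell (sums of 782 to 1320 against 243 to 932 CPM). Their part in the result was not tested.

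*Mapk8* (chr14:33377898-33447158, minus strand) encodes JNK1 and *Mapk9* (chr11:49846751-49886421, plus strand) JNK2, both widely expressed. *Mapk8* measured 23.3, 24.9 and 25.5 CPM in controls and 28.6, 28.1 and 26.3 CPM in mutants. All mutants were above all controls, by a margin smaller than the spread within either group. With a log2 fold change of 0.17 (SE 0.09, 95% interval -0.04 to 0.38, edgeR adjusted p = 0.21) it missed the threshold. Its transcript has the lowest GC content of the 10 genes, 40.1%, and with an offset for GC content the estimate was 0.46 (edgeR adjusted p = 0.02), with GC content and length 0.62 (edgeR adjusted p = 0.00765).

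*Mapk9* measured 43.1, 51.6 and 49.7 CPM in controls and 52.1, 48.1 and 43.3 CPM in mutants. The groups overlapped over almost their whole range, with control 1 and mutant 3 both low. Its log2 fold change was -0.01 (SE 0.11, 95% interval -0.26 to 0.24, edgeR adjusted p = 0.97), with a sign that changed between settings.

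Levels of different genes were compared per length of exon sequence, taken over all exons of a gene together. This length is 11444 bases for *Mapk8* and 6784 for *Mapk9*, while their longest transcripts have 5756 and 4682. The size of each share therefore depends on this choice of length. Among the JNK kinases, *Mapk9* made up 71.7%, 73.8% and 73.0% of the transcripts per length in controls and 74.0%, 72.1% and 72.3% in mutants. The share of the JNK2 gene thus overlapped between groups (means 72.8% and 72.8%, exact permutation p = 1). *Mapk8* held 22.1% ± 0.913 (SD, n = 3) in controls and 24.98% ± 0.983 (SD, n = 3) in mutants, and *Mapk10* held 5.07% ± 0.280 and 2.22% ± 0.688. For both the libraries of the groups were apart, with an exact two-sided permutation p of 0.1, the smallest that 3 against 3 libraries allow. The 3 shares of a library add up to its whole, and the mean share of *Mapk9* hardly moved. The rise for *Mapk8* and the fall for *Mapk10* therefore mirror each other and are not separate results. The ratio of *Mapk8* to *Mapk9* counts was 0.541, 0.483 and 0.514 in controls and 0.548, 0.583 and 0.606 in mutants, a difference of 0.18 on the log2 scale (exact permutation p = 0.1), the groups adjoining with control 1 just below mutant 1.

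**Figure D2:**
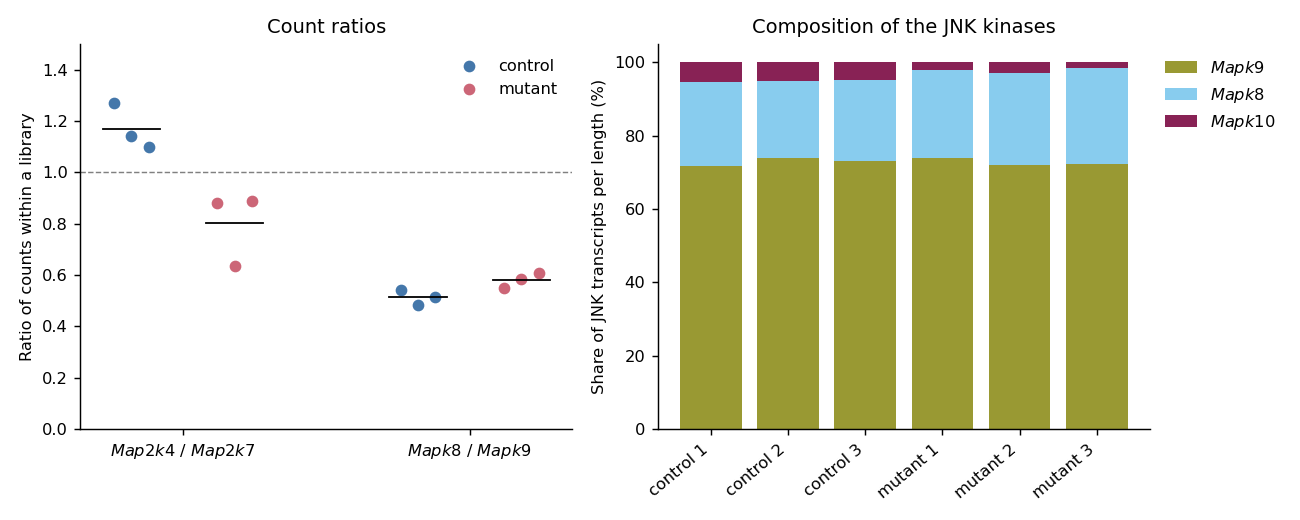
Left, ratios of counts of *Map2k4* to *Map2k7* and of *Mapk8* to *Mapk9* in each library, with group means as lines. Right, the share in percent of each JNK gene in the summed JNK level per length by library, in which *Mapk10* takes 4.82% to 5.37% in controls and 1.67% to 2.99% in mutants.

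Of the MAP2 kinases that phosphorylate JNK, 1 passed the threshold. *Map2k7* (chr8:4238740-4247897, plus strand) encodes MKK7, which acts on JNK alone. It measured 51.5, 55.4 and 55.2 CPM in controls and 71.4, 82.8 and 65.8 CPM in mutants. All mutants were above all controls, and mutant 2 was the highest. The mean was 54.0 ± 2.24 CPM (SD, n = 3) in controls and 73.3 ± 8.69 CPM (SD, n = 3) in mutants, a rise of 35.7% (log2 fold change 0.44, SE 0.11, 95% interval 0.20 to 0.68, edgeR adjusted p = 0.0262).

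The call on *Map2k7* depended on the setting. Its transcript has a GC content of 56.0%, among the 4833 genes of highest GC content, and with an offset for GC content the log2 fold change was 0.25 (edgeR adjusted p = 0.109). Without control 1, control 2, control 3 or mutant 1 in turn the log2 fold change was 0.40, 0.45, 0.45 and 0.46 and the edgeR adjusted p was 0.077, 0.109, 0.11 and 0.0549. Of the stretches of 75 bases in its transcripts 31.6% also occur in *Gm49320*, an overlapping gene model that rose from 0.0343 to 0.567 CPM in controls to 1.29 to 6.69 CPM in mutants, so some reads of the pair could belong to either. Summed, the pair gave a log2 fold change of 0.50 (edgeR adjusted p = 0.024).

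*Map2k4* (chr11:65688243-65788297, minus strand) encodes MKK4, which acts on JNK and also on p38. It measured 65.1, 63.0 and 60.6 CPM in controls and 62.9, 52.5 and 58.4 CPM in mutants. The groups overlapped and mutant 2 was lowest. Its log2 fold change was -0.12 (SE 0.10, 95% interval -0.34 to 0.10, edgeR adjusted p = 0.394).

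Within a library the ratio of *Map2k4* to *Map2k7* counts was 1.27, 1.14 and 1.10 in controls and 0.882, 0.634 and 0.888 in mutants. Every mutant ratio was below every control ratio, a comparison of counts that are not divided by length. The difference was -0.56 on the log2 scale, with an exact permutation p of 0.1. This ratio does not depend on scaling between libraries. The GC content of the transcripts was 45.0% in *Map2k4* and 56.0% in *Map2k7*, and with an offset for GC content the log2 fold changes of the genes lay closer together, at -0.02 and 0.25.

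**Figure D3:**
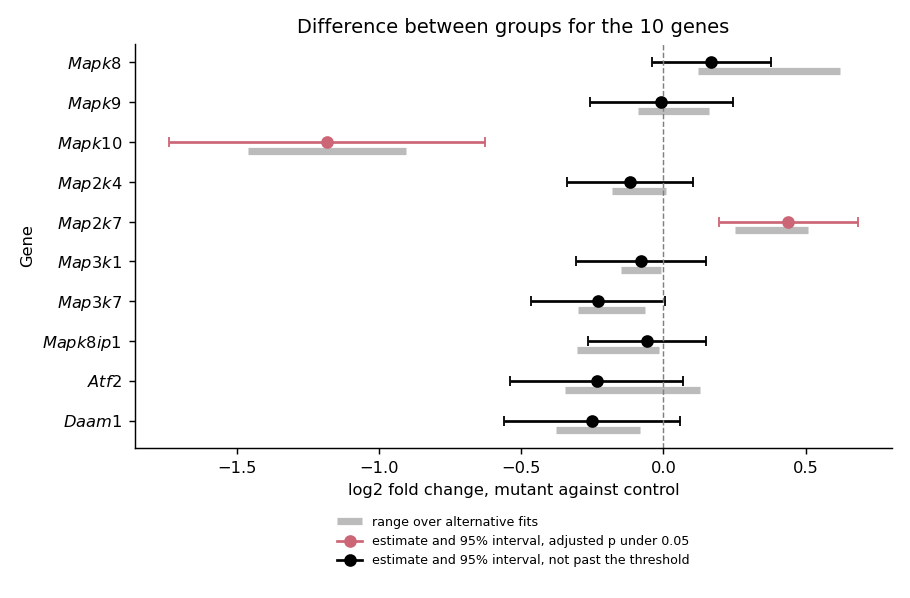
Log2 fold change of mutant against control for each JNK branch gene, with its 95% interval (points and bars, red where the adjusted p is under 0.05), and the range over the alternative settings (grey bars). The intervals of *Mapk10* (-1.74 to -0.63) and *Map2k7* (0.20 to 0.68) exclude 0, and the grey bars of *Mapk9*, *Map2k4* and *Atf2* reach both sides of 0.

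Of the MAP3 kinases 0 of 2 passed the threshold in edgeR's test (0 at an unadjusted p under 0.05 and 0 with DESeq2 or limma). *Map3k7* (chr4:31964097-32023467, plus strand) encodes TAK1, a kinase activated by TGF-β, inflammatory and Wnt signals. It measured 87.8, 89.6 and 87.1 CPM in controls and 82.4, 65.9 and 77.1 CPM in mutants. Every mutant was below every control, and mutant 2 was lowest. The estimate was -0.23 on the log2 scale (SE 0.10, 95% interval -0.47 to 0.01, edgeR adjusted p = 0.138). *Map3k1* (chr13:111746428-111808993, minus strand), which encodes MEKK1, measured 50.01, 55.6 and 55.2 CPM in controls and 55.5, 46.5 and 50.2 CPM in mutants, overlapping, with a log2 fold change of -0.08 (SE 0.10, 95% interval -0.31 to 0.15, edgeR adjusted p = 0.588).

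*Mapk8ip1* (chr2:92383676-92401263, minus strand) encodes the scaffold JIP1, which holds MKK7 and JNK together. It measured 36.1, 33.5 and 34.6 CPM in controls and 31.5, 32.9 and 35.7 CPM in mutants, and the groups overlapped, with mutant 1 lowest and control 1 highest. An estimate of -0.06 was found on the log2 scale (SE 0.09, 95% interval -0.27 to 0.15, edgeR adjusted p = 0.669). This gene has the highest GC content of the 10, 59.6%, and with an offset for GC content the estimate was -0.30.

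*Atf2* (chr2:73816509-73892639, minus strand), a transcription factor that JNK phosphorylates, measured 42.4, 50.2 and 49.2 CPM in controls and 41.2, 33.3 and 45.9 CPM in mutants. The groups overlapped because control 1 was low. On the log2 scale the difference was -0.24 (SE 0.13, 95% interval -0.54 to 0.07, edgeR adjusted p = 0.226), and with offsets for GC content its sign turned, to 0.04. *Daam1* (chr12:71831078-71992333, plus strand), an actin-nucleating formin that binds Dishevelled, measured 59.6, 58.6 and 56.2 CPM in controls and 50.8, 39.0 and 56.5 CPM in mutants, with mutant 3 among the controls. Its estimate was -0.25 on the log2 scale (SE 0.14, 95% interval -0.56 to 0.06, edgeR adjusted p = 0.202).

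Mutant 2 was the lowest of the 6 libraries for 5 of the 10 genes (*Map2k4*, *Map3k1*, *Map3k7*, *Atf2* and *Daam1*) and the highest for *Map2k7*. Without this library the log2 fold changes were -0.14 for *Map3k7*, -0.11 for *Atf2* and -0.11 for *Daam1*, while *Mapk10* stood at -1.46 (edgeR adjusted p = 0.0042) and *Map2k7* at 0.35 (edgeR adjusted p = 0.0244). The 2 genes past the threshold were thus still past it.

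Per length of exon sequence the 10 genes fell into a broad order. In controls *Map2k7* (14.1 ± 0.584 CPM per kb, SD, n = 3), *Map3k7* (13.7 ± 0.197) and *Map2k4* (13.5 ± 0.485) came first, and these 3 levels overlapped. *Mapk8ip1* (7.48 ± 0.283), *Map3k1* (7.20 ± 0.417), *Daam1* (7.18 ± 0.215) and *Mapk9* (7.09 ± 0.660) also overlapped each other, and below them came *Atf2* at 5.77 ± 0.520. *Mapk8* (2.15 ± 0.102) and *Mapk10* (0.492 ± 0.0205) lay clearly lower, so the level of JNK2 transcripts per length exceeded that of JNK1 and JNK3 in all libraries. In mutants *Map2k7* stood at 19.2 ± 2.27 CPM per kb, above *Map2k4* (12.4 ± 1.12) and *Map3k7* (11.7 ± 1.31) with no overlap, and the last 3 places were again *Atf2*, *Mapk8* and *Mapk10*. The length used was that of all exons of a gene together. For *Atf2* it is 8187 bases, while the longest transcript has 4210, and for *Map3k1* it is 7447 against 6978. The place of *Atf2*, and the order among the genes above *Mapk8*, therefore depend on this choice of length.

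The genes with the profile over the 6 libraries most like that of each JNK kinase were found by the root mean square difference of log2 CPM around each gene's own mean, among genes of similar abundance. For *Mapk10* they were *Vstm2b* (0.0878), *Syn2* (0.0894) and *Gm27177* (0.132), of 3206 candidates. They were chosen for this likeness, so their own differences between groups add nothing to it. For *Mapk8* they were *Taf3*, *Cdc40* and *Zdhhc8* (0.019 to 0.0305, of 5277 candidates), and for *Mapk9* *Sun2*, *Csnk1g1* and *Spire1* (0.0278 to 0.0382, of 4793).

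Since *Atf2* and Jun proteins bind related DNA motifs, the RefSeq promoter windows (GRCm38.p6, 250 bases before to 50 after a start) of the 10 genes and of *Jun* were read for TGACGTCA, TGACATCA and TGAGTCA on both strands; these motifs were chosen after the expression values were known. Windows were held for 9 of the 10 genes. TGACGTCA occurred before the start of *Mapk10*, beginning 29 bases upstream, and in 1.79% of all 32851 windows. TGACATCA was searched for as the motif of the *Jun* promoter. Its match before the start of *Jun*, beginning 45 bases upstream, was therefore fixed in advance. It occurred in 3.62% of all windows, and TGAGTCA (5.20% of all windows) was not in these windows. The pair of windows of 100 bases is shown for the gene that fell and for the best known JNK target, at chr5:103211335-103211434 and chr4:95052223-95052322, both minus strand, with the motif in capitals.
Mapk10: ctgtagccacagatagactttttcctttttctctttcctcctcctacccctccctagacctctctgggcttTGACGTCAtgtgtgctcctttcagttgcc
Jun: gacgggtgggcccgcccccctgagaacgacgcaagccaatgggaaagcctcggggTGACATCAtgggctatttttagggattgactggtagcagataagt

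A further match to TGACATCA, on the opposite strand, lay after the start of *Daam1*. *Jun* measured 38.4, 46.3 and 49.8 CPM in controls and 39.7, 33.4 and 47.3 CPM in mutants. The groups overlapped, with a log2 fold change of -0.16 (SE 0.15, 95% interval -0.50 to 0.18, edgeR adjusted p = 0.458). A match describes the sequence only.

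The rest of the JNK pathway was read from a list of 54 genes, of which 8 (14.8%) passed the threshold beside 20.2% of all genes tested, 7 lower and 1 higher, with a median log2 fold change of -0.08. The split was 8 lower and 6 higher with DESeq2 (25.9%, beside 28% of all genes). It was 6 lower and 4 higher without mutant 2 (18.5%, beside 19% of all genes). Without control 3 the count was 0 (edgeR), beside 4.39% of all genes, and without control 2 it was 1 (1.85%), beside 4.57%. Upstream, 0 of 12 other MAP3 kinases passed in edgeR's quasi-likelihood test (3 at an unadjusted p under 0.05, 2 with DESeq2, 0 with limma), the nearest being *Map3k2* (-0.60, edgeR adjusted p = 0.0576). Among 7 MAP4 kinases, which activate MAP3 kinases, *Mink1* rose from 95.4 ± 2.47 to 144 ± 25.5 CPM (SD, n = 3, log2 fold change 0.59, edgeR adjusted p = 0.0207) and *Map4k3* fell from 79.7 ± 1.52 to 57.3 ± 11.1 CPM (SD, n = 3, -0.48, edgeR adjusted p = 0.0473). *Nlk*, a kinase downstream of TAK1 in Wnt signaling, fell from 27.5 ± 0.856 to 20.6 ± 1.91 CPM (SD, n = 3, -0.42, edgeR adjusted p = 0.0263), whereas *Tab1*, a TAK1 activator, had an estimate of 0.57 and an edgeR adjusted p of 0.0504. With an offset for GC content *Mink1* stood at 0.37 (edgeR adjusted p = 0.0615), *Map4k3* at -0.37 (edgeR adjusted p = 0.114) and *Nlk* at -0.34 (edgeR adjusted p = 0.0574).

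Of 5 other scaffolds 0 passed in edgeR's test (3 at an unadjusted p under 0.05, 2 with DESeq2, 0 with limma), and of 6 JNK phosphatases 0 passed (0 at an unadjusted p under 0.05 and 0 with either other tool). The scaffold genes *Mapk8ip3* (0.62, edgeR adjusted p = 0.0696) and *Spag9* (-0.43, edgeR adjusted p = 0.108) had estimates of opposite sign. The groups of all 6 phosphatases overlapped, with estimates from -0.32 for *Dusp8* to 0.03.

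Downstream, 1 of 8 other nuclear substrates passed, *Creb5*, a relative of *Atf2*, which measured 19.6, 27.7 and 27.2 CPM in controls and 11.3, 13.9 and 14.3 CPM in mutants. All mutants were below all controls (log2 fold change -0.91, SE 0.16, edgeR adjusted p = 0.00942). *Junb* (0.21, edgeR adjusted p = 0.239) and *Atf7* (-0.15, edgeR adjusted p = 0.445) did not pass. Of 10 cytoplasmic substrates 4 fell past the threshold, beside 9.84% of all genes tested, the other 6 not passing, with a median of -0.37. They were *Bcl2*, a survival protein gene (37.3 ± 4.96 to 22.5 ± 2.26 CPM, SD, n = 3, -0.73, edgeR adjusted p = 0.00951), *Itch*, a ubiquitin ligase (80.2 ± 6.75 to 50.8 ± 8.75 CPM, SD, n = 3, -0.66, edgeR adjusted p = 0.0171), and the microtubule regulators *Map2* (-0.72, edgeR adjusted p = 0.0172) and *Stmn1* (-0.58, edgeR adjusted p = 0.0299). Of the stretches of 75 bases of *Stmn1*, 15.4% are shared with *Gm11223*. With an offset for GC content *Itch* stood at -0.45 (edgeR adjusted p = 0.0651), and with GC content and length *Creb5* stood at -0.42 (edgeR adjusted p = 0.0823).

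Dishevelled and the formins were read beside *Daam1*. The groups of all 3 Dishevelled genes overlapped (*Dvl1* 0.28, *Dvl2* 0.17, *Dvl3* 0.0022 on the log2 scale), and 0 passed in edgeR's test (0 at an unadjusted p under 0.05 and 0 with DESeq2 or limma). All 4 other formins had estimates below 0, and *Diaph3*, which nucleates actin filaments, fell from 4.70 ± 0.198 to 2.70 ± 0.480 CPM (SD, n = 3, -0.80, edgeR adjusted p = 0.0192). *Daam2*, the closest relative of *Daam1*, had an estimate of -0.51 (edgeR adjusted p = 0.0742). With an offset for GC content it was -0.66 (edgeR adjusted p = 0.049), and *Daam2* passed the threshold in 4 of 18 alternatives.

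*Cdc42*, a GTPase that acts on the actin cytoskeleton, measured 260, 256 and 249 CPM in controls and 203, 177 and 207 CPM in mutants. All mutants were below all controls (log2 fold change -0.38, SE 0.11, edgeR adjusted p = 0.0389). *Rac1*, the GTPase that leads to JNK, measured 231, 239 and 239 CPM in controls and 214, 180 and 200 CPM in mutants, also without overlap, but missed the threshold (-0.25, SE 0.11, edgeR adjusted p = 0.115), and it shares 49.7% of its stretches of 75 bases with *Daglb*. *Rock1*, a kinase that promotes actomyosin contraction, fell (-0.48, edgeR adjusted p = 0.0242), and *Pfn1*, the actin monomer binder profilin, rose (0.36, edgeR adjusted p = 0.0335). With an offset for GC content the estimate of *Cdc42* was -0.20 (edgeR adjusted p = 0.274), that of *Rock1* -0.20 (edgeR adjusted p = 0.287) and that of *Pfn1* 0.13 (edgeR adjusted p = 0.422), and with GC content and length that of *Rock1* was 0.05.

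**Figure D4:**
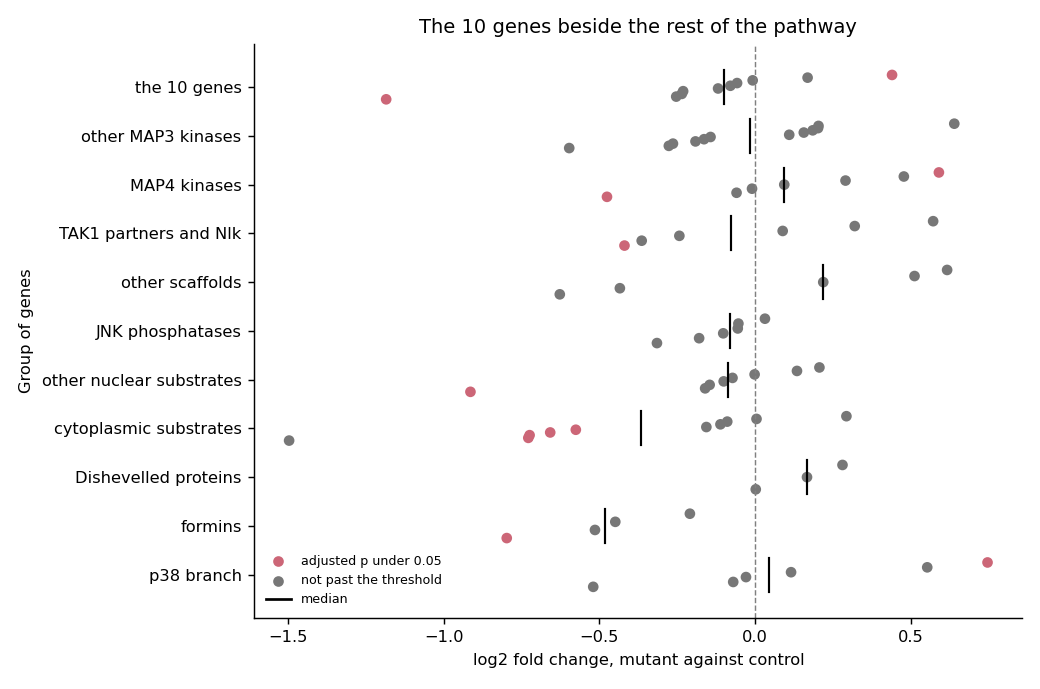
Log2 fold change of mutant against control (horizontal axis) for the 10 JNK branch genes and for groups of the wider pathway, with red points for an adjusted p under 0.05, grey points for the others and a line at each group's median. The medians of the cytoplasmic substrates (-0.37) and the formins (-0.48) lie farthest below 0, and that of the JNK branch genes lies at -0.10.

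The parallel MAP kinase branches were set beside these. Of 13 genes of the p38 and ERK branches 3 (23.1%) passed, beside 20.2% of all genes tested, with a median of 0.08. Without control 2 or control 3 the count was 0 (edgeR), beside 4.57% and 4.39% of all genes. *Mapk13*, a p38 kinase, rose from 14.6 ± 2.02 to 24.6 ± 5.14 CPM (SD, n = 3, log2 fold change 0.75, edgeR adjusted p = 0.0208). Of the MAP2 kinases of ERK, 1 rose and 1 fell. *Map2k2* rose from 79.7 ± 4.83 to 108 ± 0.652 CPM (SD, n = 3, 0.44, edgeR adjusted p = 0.0148), and *Map2k1* fell from 47.6 ± 1.84 to 31.8 ± 5.09 CPM (SD, n = 3, -0.58, edgeR adjusted p = 0.0184). With an offset for GC content *Map2k2* stood at 0.18 (edgeR adjusted p = 0.245).

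**Figure D5:**
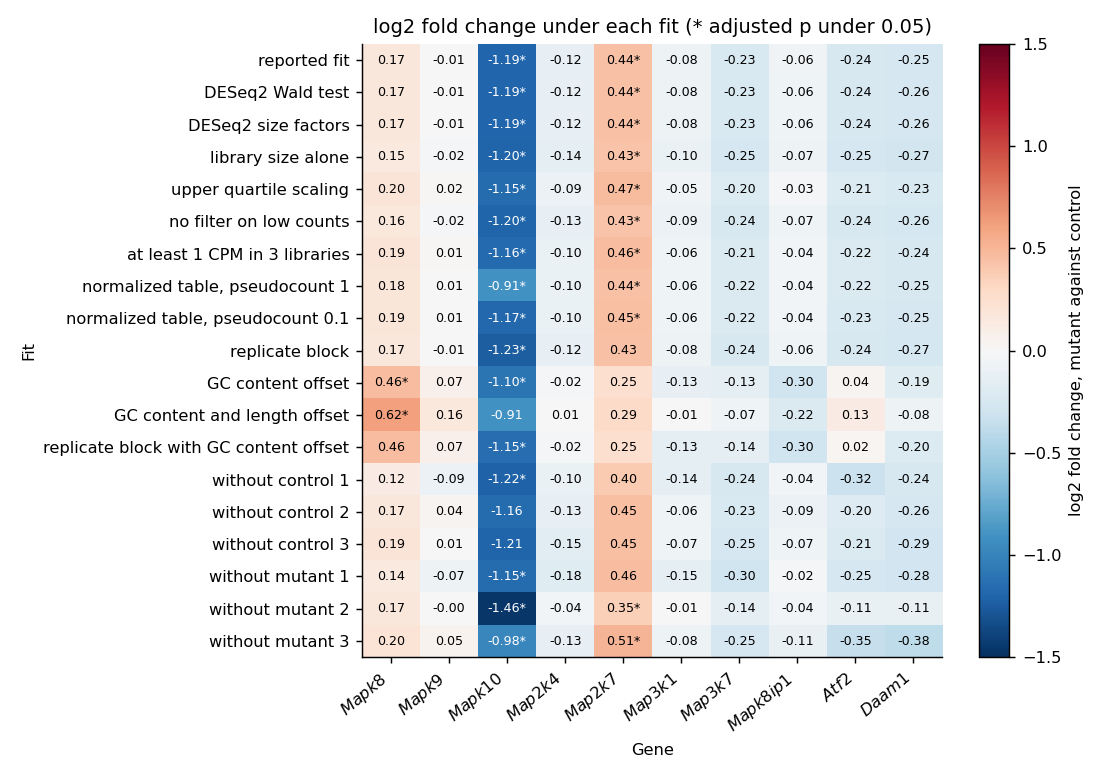
Log2 fold change of each JNK branch gene (columns) in the reported fit and in 18 alternative settings (rows), printed in each cell and colored from blue (lower in mutants) to red (higher), with an asterisk for an adjusted p under 0.05. *Mapk10* is negative in every row, and *Map2k7* is positive in every row, while *Mapk8* carries an asterisk only in rows with GC offsets.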

How the data were processed

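Members and gene lists were chosen with earlier results of these data known. The authors deposited estimated counts per gene and a table of normalized signal, which was used in alternatives only. Methods name TopHat 2 and counting over exons, and the submitters' processing notes name STAR 2.6.1d, Partek and mm10. The program that divided reads between genes and the use of strand are not given in the sources used here. Normalized signal equalled (count + 1) times a factor per library to within 0.000822%. The count table held 6 columns of other samples, which were not used. Estimated counts (47.8% whole) were rounded, although the design had assumed counts, scaled by TMM, filtered with filterByExpr and tested by edgeR's quasi-likelihood test (edgeR 4.0.16, R 4.3.3, two-sided, Benjamini-Hochberg adjustment over 19330 genes, no covariate). A threshold of 0.05 was used. Depth was 56134770 to 62628940 counts, and the lowest chi-square per gene between libraries of a group was 60.6, so none was a copy.

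Ratios used a pseudocount of 0.5 and an exact two-sided permutation test over 20 arrangements. Levels between genes were CPM divided by exon length, taken over all exons of a gene together (GENCODE M21, all genes matched by symbol and overlapping position). Shared sequence was counted as stretches of 75 bases found in transcripts of another gene. All 10 members were named, with the 3 genes of smallest p in each group of the lists, *Ror2*, *Jun*, *Rac1*, *Cdc42* and the 3 nearest profiles of each JNK kinase. *Stmn1* and *Gm49320* fall outside this rule and were named after their values were seen, as were the markers *Tubb3*, *Stmn2*, *Rbfox3*, *Elavl4*, *Snap25*, *Syt1*, *Nefl* and *Prph*. Some of the results this rule names are not reported here. Alternatives were DESeq2 1.42.0, limma 3.58.1 on the deposited normalized signal (pseudocounts 1 and 0.1), other scalings and filters, offsets for GC content and length (splines with 5 degrees of freedom), a replicate block, leaving out each library and, added after seeing the data, summing genes that share at least 20 stretches. The test was tried on simulated counts first, where it recovered the sizes of changes. In this trial 200 of 19004 genes were changed, while 3906 of 19330 genes were called in the data. The test called 9.47% of genes changed by 0.5 on the log2 scale and 63.5% of those changed by 1. The adjustment is stricter where fewer genes differ, so these shares may be too low for the data, where the share was not tested. A gene that missed the threshold may still differ. A first requirement on the share called in the trial was not met and was replaced after that share was seen.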

Additional observations from a re-analysis of the deposited data

How the results depend on the processing

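Members past the threshold numbered 2 in the reported fit (*Mapk10* and *Map2k7*), 2 with GC content (*Mapk10* and *Mapk8*), 1 with GC content and length (*Mapk8*), 1 with a replicate block and 1 with block and GC content together (*Mapk10* in both), and 0 to 2 when 1 library was left out (0 without control 2 or control 3). Other JNK pathway genes numbered 8 and then 14 with DESeq2, 4 with the block, 4 with block and GC content, and 0 to 11 with 1 library left out (0 without control 3, 1 without control 2). Genes of the p38 and ERK branches numbered 3 and then 6 with DESeq2, 6 with library size alone, 5 with a minimum of 1 CPM, 1 with block and GC content and 0 to 4 with 1 library left out. All genes numbered 3906 (20.2%), then 5410 (28%) with DESeq2, 3714 (19.2%) with library size alone and 3586 (23.7%) with a minimum of 1 CPM. They numbered 2640 (13.7%) with GC content, 2814 (14.6%) with GC content and length, 2013 (10.4%) with the block and 1292 (6.68%) with block and GC content. Counts were 2680 (13.5%), 910 (4.57%) and 872 (4.39%) without control 1, 2 and 3. Without mutant 1, 2 and 3 in turn they were 2404 (12.2%), 3724 (19%) and 5001 (25.2%). Fits without 1 library assume that the remaining libraries of its group vary like the others. The numbers in the labels did not pair the libraries: deviations of equally numbered libraries correlated at -0.1, -0.08 and -0.004, so the block shares only a number.

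*Mapk10* had an adjusted p under 0.05 in 15 of 18 alternatives and *Map2k7* in 11 of 19, with 0.43 and an edgeR adjusted p of 0.0697 in the fit with the block. Without division by length the difference in share was 4.04 percentage points for *Mapk8* and -3.95 for *Mapk10*. With 1 library left out the differences ran from 2.36 to 3.34 for *Mapk8*, -0.61 to 0.488 for *Mapk9* (reversed at 0.488, 0.051, 0.330 and 0.214 without control 2, control 3, mutant 2 and mutant 3) and -3.23 to -2.58 for *Mapk10*. The sign of estimates turned as follows on the log2 scale, with no turned value past the threshold. Of these genes only *Rock1* (-0.48) had passed it in the reported fit. *Mapk9* was 0.022 with upper quartile scaling, 0.014 with a minimum of 1 CPM, 0.0105 and 0.0107 with the pseudocounts, 0.074 with GC content, 0.16 with GC content and length, 0.071 with block and GC content, and 0.036, 0.0072 and 0.055 without control 2, control 3 and mutant 3. With GC content, GC content and length, and block and GC content in turn, *Atf2* was 0.037, 0.13 and 0.024, *Junb* -0.11, -0.0975 and -0.12 and *Dvl3* -0.17, -0.063 and -0.17. With GC content and with block and GC content, *Map3k11* was -0.080 and -0.083 and *Dvl2* -0.036 and -0.037. With GC content and length *Map2k4* was 0.0077, *Atf7* 0.0565 and *Rock1* 0.045. *Dvl3* was -0.017 with library size alone, -0.0068 without a filter, and -0.044, -0.0309 and -0.0307 without control 1, mutant 1 and mutant 3. The causes were not tested.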
